A study of Mus musculus with 8 samples.

Results

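Nephron progenitors labelled Smo Het were compared with nephron progenitors labelled Smo WT, across every gene with enough reads to test. The comparison used 4 of the 8 libraries of the series, picked by their labels, with 2 in each group. Of 24539 gene symbols in the table, 13459 were tested. The cells came from mouse kidneys at E18.5, late in gestation, and were isolated by flow cytometry, and their polyadenylated RNA was sequenced. Every group carried Six2GFPcre, a transgene that puts a fusion of GFP and Cre recombinase under Six2 control, so the WT-labelled libraries come from Cre-bearing cells as well. The Het-labelled libraries had the genotype Smo c/+, with 1 conditional and 1 wild-type copy of Smo, and the WT-labelled libraries Smo +/+. The other groups were KO (Smo c/c) and SmoM2 (Smo +/+ with Rosa26 SmoM2/+, which carries an active form of Smo), with 2 libraries each. They shared the estimate of spread and serve below as reference levels. Cre driven by Six2 can recombine the conditional allele only in cells that express the transgene or descend from them. The labels do not say whether 2 libraries of a group came from separate embryos, so p-values measure the spread between libraries, which may be technical.

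Hedgehog ligands bind the receptor Ptch1 and thereby release Smo, a membrane protein that otherwise stays inactive. Active Smo lets Gli transcription factors switch on targets such as Gli1, Ptch1 and Hhip, several of which feed back on the pathway. In the developing kidney, Hedgehog signals act mainly on stromal and ureteral mesenchyme. Nephron progenitors form the cap around each ureteric bud tip, renew themselves through Six2 and other factors, and turn into renal vesicles when Wnt and FGF signals trigger differentiation.

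Total counts were 7577590 and 5929770 in the Het-labelled and 10305398 and 9396539 in the WT-labelled libraries, so the Het-labelled ones were shallower. Levels are given below as CPM, a gene's counts relative to the scaled total of its library, always for replicate 1 and then replicate 2. A change is the log2 of the Het-labelled over the WT-labelled level with its standard error (SE), and a gene is called when the Benjamini-Hochberg adjusted p-value of edgeR's quasi-likelihood test is under 0.05. Log2 CPM correlated at r = 0.984 between the Het-labelled replicates, 0.980 between the WT-labelled replicates and 0.948 to 0.953 across the groups, over tested genes that are not independent. Both Het-labelled libraries had 0 counts over 4 Y-linked genes. WT-labelled replicate 1 had 2196 such counts and replicate 2 had 0, so the sexes were not balanced. Both KO-labelled libraries had such counts, 620 and 568, so in KO against Het sex and group cannot be told apart. The labels give no batch.

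Smo itself was nearly absent from the Het-labelled libraries. The gene lies at chr6:29735497-29761366 (mm10). It had 108 and 141 counts in the Het-labelled and 3893 and 3442 in the WT-labelled libraries. As CPM these were 14.4 and 23.9 against 363 and 375, a log2 change of -4.28 (SE 0.20, adjusted p = 1.6e-06). The authors' RPKM values, which also divide by gene length, were 2.95 and 4.85 against 77.3 and 74.7. The Het-labelled mean was 5.20% of the WT-labelled mean, with 3.91% in replicate 1 and 6.49% in replicate 2. A single wild-type allele of 2 would give 50%, so the level goes against the labelled genotype. The KO-labelled libraries had 13.1 and 11.1 CPM, or 3.28% of the WT-labelled mean on average, and the test between KO and Het gave a log2 change of -0.65 (SE 0.23, adjusted p = 0.091). For that reason the groups are called by their labels throughout, and no result is read as the effect of losing 1 allele. A mislabelled group and a Smo level far below the allele number cannot be told apart here.

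Transcripts induced by Hedgehog signalling were low in the Het-labelled libraries. Of 7 genes in the target list, 4 fell and none rose, against a background of 12.2% of all tested genes called lower, 13.1% called higher and 25.3% called in either direction. Gli1, the transcription factor most often read as a gauge of the pathway, had 2.67 and 4.42 CPM in the Het-labelled and 33.6 and 28.3 in the WT-labelled libraries, a log2 change of -3.15 (SE 0.28, adjusted p = 8.3e-05). Ptch1, the receptor, fell less, from 155 and 168 to 75.5 and 76.9 CPM (-1.08 on the log2 scale, SE 0.12, adjusted p = 1.7e-04). In both genes the 2 Het-labelled values lay well under the 2 WT-labelled ones. Hhip, which binds and removes ligand, had 3 and 2 counts in the Het-labelled libraries, no more than the floor of 3 counts taken here as undetected. It was at least 8.45-fold lower than in the WT-labelled libraries, where it had 34 and 50 counts (adjusted p = 0.0011). Foxf1 and Foxf2, targets in gut and ureteral mesenchyme, had at most 8 counts in any of the 4 libraries and were not called. The median of the list was -2.83, which becomes -2.08 when bounds replace the values of genes at the floor, beside -0.02 for all tested genes.

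**Figure D1:**
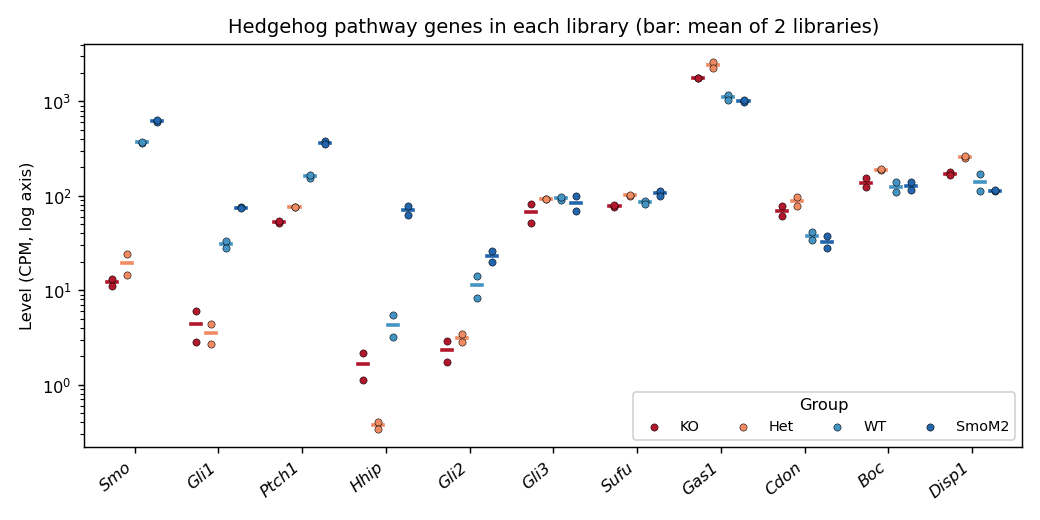
Level of 11 Hedgehog pathway genes in each of the 8 libraries (CPM, log axis), with points for libraries and bars for the mean of 2 libraries a group. Smo, Gli1, Ptch1, Hhip and Gli2 sit lower in the Het-labelled than in the WT-labelled libraries, whereas Gas1, Cdon, Boc and Disp1 sit higher.

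Co-receptors moved the other way. Gas1, a membrane protein that helps present ligand to Ptch1 and is switched down by Hedgehog signalling in many tissues, had 2594 and 2254 CPM in the Het-labelled and 1167 and 1039.8 in the WT-labelled libraries (1.14 on the log2 scale, SE 0.13, adjusted p = 2.3e-04). Cdon, a co-receptor of the same kind, had 78.2 and 96 against 34.2 and 41.2 CPM (1.21, SE 0.18, adjusted p = 0.0011). For both genes the groups were separate by more than the gap between replicates. Boc, the third co-receptor, rose by 0.59 (adjusted p = 0.017) from 139 and 111 to 185 and 192 CPM, a call that was lost without Het-labelled replicate 1 (adjusted p = 0.083), Het-labelled replicate 2 (0.1) or WT-labelled replicate 2 (0.14) and with GC and length trends removed (0.084). Disp1, which releases ligand from producing cells, rose by 0.87 (adjusted p = 0.0042). Shh, Ihh and Dhh, the ligands themselves, had too few counts to test, with at most 13 in any of these 4 libraries. In all, 4 of 7 tested reception genes rose and 2, Smo among them, fell (85.7% called, beside 25.3% of all tested genes).

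Inside the cell the picture was mixed. Gli2, a main activator, was at 2.81 and 3.4 CPM against 8.2 and 14.3 (-1.85, SE 0.34, adjusted p = 0.0036). Gli3, the main repressor, had 91.7 and 92.1 CPM in the Het-labelled and 90.5 and 97.9 in the WT-labelled libraries (adjusted p = 0.92), and Sufu, which holds Gli proteins in the cytoplasm, had 99.99 and 102 and 87.4 and 82.8 CPM (adjusted p = 0.15). Thus the activator fell, whereas the values of the repressor overlapped between the groups. Stk36, a kinase of the pathway, rose by 1.05 (adjusted p = 0.0071), and Prkaca, the catalytic subunit of protein kinase A, rose by 0.47 (adjusted p = 0.013), though the latter was called in none of the 4 fits that left out a Het-labelled or WT-labelled library (adjusted p = 0.11, 0.078, 0.055 and 0.063). Of 10 effectors, 2 rose and 1 fell (30% called), near the 25.3% of all tested genes called.

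Across the transcriptome 3403 genes were called, 1760 with a higher and 1643 with a lower level in the Het-labelled group. In each of them the 2 libraries of a group lay on the same side of the other 2. With 2 libraries a group a call nearly requires such a separation, so it adds no support to the calls. The median size among called genes was 0.76 on the log2 scale. A change of at least 2-fold was seen in 1067 called genes, 555 higher and 512 lower, and of at least 4-fold in 90 higher and 138 lower. GC content moved with these calls. With genes split by GC content into 4 classes of equal size, in the lowest class 2.95% were called higher and 21.2% lower, with a median change of -0.26, whereas in the highest class the shares were 27.4% and 5.04% and the median was 0.26. With trends over GC content and length removed, 2803 genes were called, and 2235 of the original calls remained (65.7%). Without a single library the count fell to between 1401 (without Het-labelled replicate 2) and 2533 (without WT-labelled replicate 1), and 8.29% of the calls remained when the mean level of immediate early genes entered as a covariate.

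**Figure D2:**
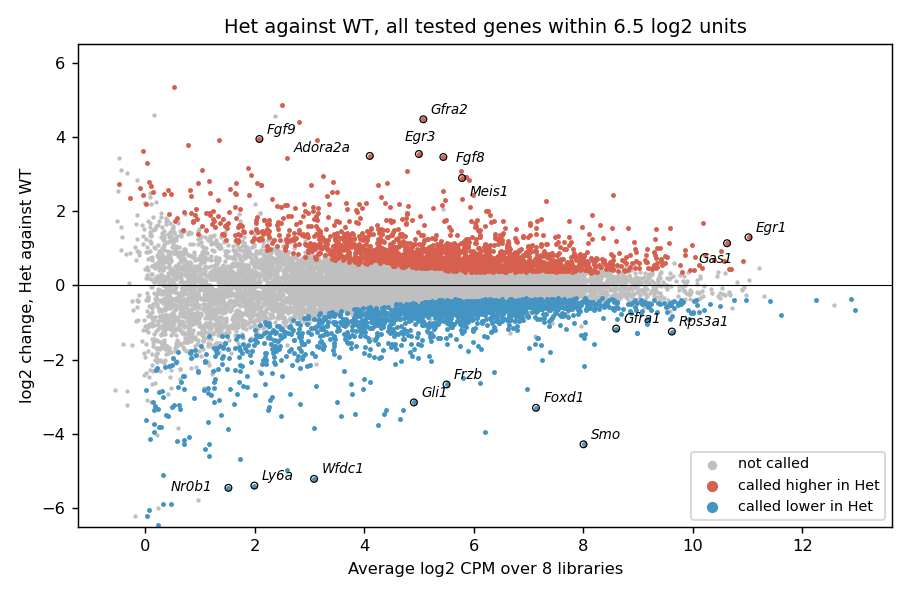
Log2 change of the Het-labelled against the WT-labelled libraries plotted against average log2 CPM, with 1 point for each tested gene whose change is within 6.5 log2 units. Red and blue points are genes called higher and lower, and grey points are not called. Smo, Foxd1, Gli1 and Wfdc1 stand out below, and Gfra2, Fgf8, Fgf9 and Egr3 above.

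The 10 largest rises included ligands of the FGF family, cell surface receptors and transcription factors of the Egr family. Gfra2, a receptor subunit for the ligand neurturin, had 562 and 533 counts in the Het-labelled and 59 and 16 in the WT-labelled libraries, or 75.1 and 90.5 against 5.5 and 1.74 CPM. Its change was 4.47 (SE 0.32, adjusted p = 3.2e-05), and it was called under each alternative tried. Fgf8 had 64.3 and 69 CPM against 4.01 and 8.28 (3.46, SE 0.27, adjusted p = 4.7e-05), and Fgf9 had 6.55 and 11 against 0.559 and 0.545 (3.94, SE 0.45, adjusted p = 2.7e-04). Both ligands keep kidney mesenchyme alive, and Fgf8 is also needed as progenitors begin to form nephrons. Adora2a, an adenosine receptor that raises cAMP, had 28.3 and 27.9 CPM against 3.08 and 1.85 (3.49, SE 0.28, adjusted p = 4.7e-05). KO-labelled levels of these genes were also high, at 48.3 and 54.2 CPM for Gfra2, 116 and 89.9 for Fgf8, 8.19 and 10.01 for Fgf9 and 39.4 and 45.9 for Adora2a. SmoM2-labelled levels were low, at 1.74 and 2.08 CPM for Gfra2 and 4.09 and 6.13 for Fgf8. Egr3 and Egr4 are described with the immediate early genes below. Rxfp3, a relaxin family receptor, rose by 3.15 (adjusted p = 9.0e-04) and Cd164l2 by 3.11 (adjusted p = 0.0083), each from under 1 CPM. Cd164l2 was not called without Het-labelled replicate 2 (adjusted p = 0.079).

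Fbxo2 and Fbxo44, neighbouring genes for F-box proteins of the ubiquitin system, were called higher but were uneven across the series. Fbxo2 had 13.5 and 16.3 CPM in the Het-labelled and 0.653 and 0.327 in the WT-labelled libraries (adjusted p = 0.0082), with 1.33 and 9.58 in the KO-labelled and 0.102 and 5.09 in the SmoM2-labelled ones. Fbxo44 had 13.2 and 18.9 against 1.31 and 0.762 CPM (adjusted p = 0.022), with 1.77 and 14.8 and 1.33 and 19.4 in the same other groups. For both, replicate 1 was low and replicate 2 high in the KO-labelled and in the SmoM2-labelled group. Fbxo44 was not called without Het-labelled replicate 2 (adjusted p = 0.078), WT-labelled replicate 1 (0.061) or WT-labelled replicate 2 (0.079) and with sex as a covariate (0.069).

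Apart from Smo, the largest falls named here were of genes at or close to the floor in the Het-labelled libraries. Wfdc1, a secreted protease inhibitor, had 3 and 0 counts against 93 and 83, and was at least 17.4-fold lower (adjusted p = 1.4e-04). Ly6a, the surface protein Sca-1, had 1 and 1 against 79 and 60 counts and was at least 13.6-fold lower (adjusted p = 6.9e-04). Nr0b1, the nuclear receptor Dax1, had 1 and 0 against 53 and 27 and was at least 7.73-fold lower (adjusted p = 0.0013). These 3 genes were also low in the KO-labelled libraries, with 4 and 2, 0 and 2 and 1 and 0 counts. Atp2b2, a calcium pump, was at least 8.16-fold lower, Vit, a matrix protein, at least 4.35-fold and the keratin Krt90 at least 3.75-fold, with adjusted p-values between 0.0023 and 0.012. Without a Het-labelled library Atp2b2 (replicate 2, adjusted p = 0.072) and Krt90 (replicate 1, 0.063) were not called.

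Among abundant genes, Tril, an accessory protein of Toll-like receptors, rose from 797 and 606 to 2327 and 2143 CPM (1.67, SE 0.16, adjusted p = 1.1e-04). Fscn1, which bundles actin, rose by 1.08 (adjusted p = 7.1e-04) from 630.1 and 752 to 1588 and 1339.6 CPM. Tril in the Het-labelled libraries also lay above both KO-labelled values, 1205 and 1251 CPM (KO against Het -0.86, adjusted p = 0.012, or 0.11 without Het-labelled replicate 1). Cpd, a carboxypeptidase, fell from 394 and 424 to 122 and 154 CPM (-1.57, adjusted p = 1.4e-04), and Mgea5, the enzyme that removes O-GlcNAc from proteins, fell from 291 and 408 to 141 and 138 (-1.32, adjusted p = 3.1e-04). For Cpd and Mgea5 the KO-labelled values, 108 and 133 and 141 and 151 CPM, were close to the Het-labelled ones.

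Factors that mark the stroma next to the progenitors changed in opposite directions. Foxd1, the transcription factor that defines the renal stroma (chr13:98354245-98356705), had 22.5 and 14.6 CPM in the Het-labelled and 197 and 171 in the WT-labelled libraries (-3.30, SE 0.31, adjusted p = 1.0e-04). Meis1, a homeobox factor of the same stroma (chr11:18880428-19019651), had 114 and 99.9 against 17 and 11.8 CPM (2.89, SE 0.18, adjusted p = 1.2e-05). In both cases the difference was many times the gap between replicates. The SmoM2-labelled libraries had 385 and 301 CPM of Foxd1 and 10.4 and 11.6 of Meis1, and the KO-labelled had 12.8 and 3.7 and 86.4 and 98.4. The other 10 tested stromal markers were not called, and the summed level of the list's 15 genes was 613 and 759.7 CPM in the Het-labelled and 817 and 706 in the WT-labelled libraries. In bulk RNA, fewer cells of a type and less RNA per cell cannot be told apart.

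Markers of other cell types were sparse. Summed over 13 ureteric bud genes the level was 26.9 and 33.3 CPM in the Het-labelled and 42.8 and 45.5 in the WT-labelled libraries, with Wnt11 the single gene called, at 1.2 and 0.679 against 9.79 and 7.52 CPM (adjusted p = 9.1e-04). Ret, the receptor that defines the bud tip, had 2 and 4 counts against 21 and 12. The 11 endothelial genes summed to 47.3 and 46 against 25.5 and 32.1 CPM and 8 erythroid genes to 26.6 and 20.4 against 4.29 and 5.34, so both sums were higher in the Het-labelled libraries, although the median change of the 4 tested endothelial genes was -0.14. In the endothelial list 1 gene, Plvap, rose, and in the erythroid list the alpha globins Hba-a1 and Hba-a2, which have identical counts and cannot be told apart. Pecam1 and Cdh5, defining endothelial genes, had at most 9 counts in any of the 4 libraries. Of the immune list Cd74, the invariant chain of MHC class II, rose from 19.9 and 7.84 to 109 and 130.4 CPM (3.09, SE 0.30, adjusted p = 1.1e-04) and Cd68, a lysosomal protein, from 20.5 and 27.8 to 44.8 and 41.3. The other 4 tested immune genes, Csf1r, C1qa, C1qb and C1qc of macrophages, had changes between -1.51 and -0.65 and were not called, and the median over all 6 was -0.68. Ptprc, which marks all leukocytes, had 0 and 1 counts in the Het-labelled and 1 and 0 in the WT-labelled libraries. Lrp2 and Slc5a2, both transport genes of the proximal tubule, rose by 1.38 and 1.32. Aqp1, the third tested gene of that list, had a change of -1.46 and was not called, Cubn had 1 and 1 counts in the Het-labelled and 16 and 6 in the WT-labelled libraries, and Hnf4a, which defines that tubule, had 0 and 0 in the Het-labelled ones. Podocyte genes summed to 64.3 and 57.4 against 59.4 and 63.1 CPM, and Nphs1, which makes the slit diaphragm, had 2 and 0 counts in the Het-labelled libraries. Plvap was lost without Het-labelled replicate 1 (adjusted p = 0.1) or WT-labelled replicate 1 (0.059), Cd68 without either Het-labelled library (0.094 and 0.054) or WT-labelled replicate 1 (0.074), and Hba-a1 (0.06) and Slc5a2 (0.05) without Het-labelled replicate 2. The part of such cells in the results above was not tested.

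Genes of the progenitor state were higher in the Het-labelled libraries. Of 18 progenitor genes, all tested, 10 rose and 1 fell, beside 13.1% and 12.2% of all tested genes, and the list median was 0.60. The called rises numbered 7, 8, 10 and 8 without Het-labelled replicate 1, Het-labelled replicate 2, WT-labelled replicate 1 and WT-labelled replicate 2, in that order. Cited1, a co-activator confined to the uncommitted cap, had 506 and 372 CPM against 173 and 123 (1.57, SE 0.22, adjusted p = 8.5e-04), and it was called under each alternative. The homeobox factors Meox1 and Meox2 rose by 1.36 (adjusted p = 0.0015) and 1.98 (adjusted p = 0.0014), Meox2 from 10.3 and 4.79 to 33.8 and 26.3 CPM. Uncx rose from 605 and 685 to 1229 and 1273 CPM (0.96, adjusted p = 0.0015). For each of these 4 genes the KO-labelled values were raised too, at 385 and 271 CPM for Cited1 and 1433 and 1076 for Uncx.

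Six2, which keeps progenitors from differentiating and drives the transgene used to mark them, had 2105 and 1769.7 CPM against 1333 and 1132 (0.65, SE 0.15, adjusted p = 0.0092). It was no longer called without Het-labelled replicate 1 (adjusted p = 0.11), without WT-labelled replicate 2 (0.06) or with GC and length trends removed (0.15). The integrin Itga8, whose loss blocks bud invasion, rose by 0.65 (adjusted p = 0.0046) and Sall1 by 0.54 (adjusted p = 0.0094). Tmem100, a small membrane protein, was the member that fell, from 15.4 and 19.7 to 7.75 and 10.9 CPM (adjusted p = 0.018). Without Het-labelled replicate 1, Itga8 (0.055) and Tmem100 (0.14) were also lost, Sall1 without Het-labelled replicate 2 (0.11), and Sall1 (0.063) and Tmem100 (0.087) without WT-labelled replicate 2. Osr1, Wt1 and Pax2 were not called, with changes of 1.14, 0.21 and 0.44. Osr1 had 178 and 119.6 CPM in the Het-labelled libraries and 107 and 28.1 in the WT-labelled, where replicate 2 was far below replicate 1. It was called higher without WT-labelled replicate 1 (adjusted p = 5.6e-04) and with sex as a covariate (0.0048), and Pax2 without WT-labelled replicate 2 (0.016).

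Hox genes, which set position along the body axis, were often higher. In that list 54.5% were called, beside 25.3% of all tested genes (13.1% higher and 12.2% lower). Of 22 tested, 10 rose and 2 fell, with a median of 0.35, and 8, 7, 8 and 8 rises were called without each library in the order above. Hoxb9 had 113 and 101 CPM against 24.4 and 15.1 (2.43, SE 0.33, adjusted p = 6.9e-04), Hoxb6 111 and 118 against 44.8 and 48.6 (1.30, adjusted p = 5.5e-04) and Hoxc6 128 and 175 against 67.7 and 61.4 (1.23, adjusted p = 0.0015). Of the paralogs that kidney formation requires, Hoxa11 rose by 0.88 (adjusted p = 0.0011) from 140.1 and 129 to 249 and 245 CPM, and Hoxa10 by 0.97 (adjusted p = 4.1e-04). Hoxd3 and Hoxd12 rose by 1.02 and 1.08. Hoxd9 fell by 0.94 (adjusted p = 8.1e-04) and Hoxc8 fell by 0.97 (adjusted p = 0.0049), so neighbours within the Hoxc and Hoxd clusters did not share a direction.

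**Figure D3:**
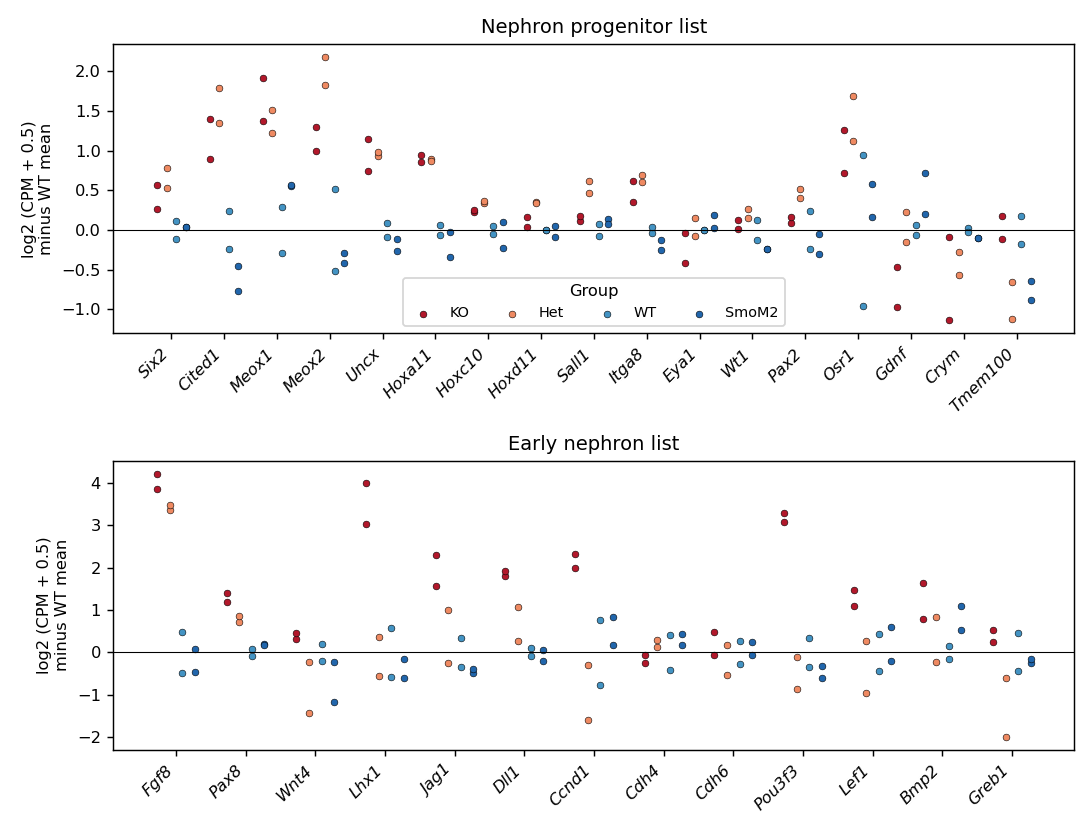
Genes of the nephron progenitor list (top) and the early nephron list (bottom) in each library, as log2 (CPM + 0.5) minus the mean of the WT-labelled libraries, with points for libraries. Cited1, Meox1, Meox2 and Uncx are raised in the Het-labelled and KO-labelled libraries, whereas Lhx1, Pou3f3 and Ccnd1 are highest in the KO-labelled libraries. Not all members of either list are plotted.

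Differentiation genes were higher in the KO-labelled than in the Het-labelled libraries, a contrast in which sex and group coincide. The early nephron list follows progenitors into the pretubular aggregate and renal vesicle. Against WT, 2 of its 15 tested genes rose and 1 fell (20% called, beside 25.3% of all tested genes). The median was -0.17. The 2 that rose were Fgf8, given above, and Pax8, from 156 and 173 to 269.9 and 298 CPM (0.79, SE 0.13, adjusted p = 0.0015). Between KO and Het, which share the Het-labelled libraries with the comparison above, 9 of the 15 genes were called higher in KO and none lower, where 9.43% of all tested genes were called, 4.33% higher and 5.1% lower in KO. Lhx1, a homeobox factor of the renal vesicle, had 4.68 and 9.34 CPM in the Het-labelled, 4.66 and 10.9 in the WT-labelled and 62.2 and 122 in the KO-labelled libraries (KO against Het 3.75, SE 0.44, adjusted p = 0.0043). Its Het-labelled values overlapped the WT-labelled ones and both lay far under the KO-labelled ones. Ccnd1, the cyclin D1 of renal vesicles, had 29.4 and 72.5 CPM in the Het-labelled, 52.7 and 153 in the WT-labelled and 361 and 452 in the KO-labelled libraries (KO against Het 3.01, adjusted p = 0.0072). Against WT its change of -1.02 was not called (adjusted p = 0.12), but it was called without Het-labelled replicate 2 (0.046), without WT-labelled replicate 1 (0.013) and with sex as a covariate (0.017). Pou3f3, a factor of the forming tubule, had 0 and 2 counts in the Het-labelled libraries against 38 and 33 in the KO-labelled ones (KO against Het, adjusted p = 0.0058). Greb1 fell against WT (-1.26, adjusted p = 0.034, or 0.2 without Het-labelled replicate 1 and 0.19 without WT-labelled replicate 2) and was higher in KO than in Het (1.60, adjusted p = 0.031). The ligands Jag1 and Dll1 of the Notch pathway were called higher in KO by 1.50 and 1.18, and the Wnt effector Lef1 by 1.63.

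Het-labelled replicate 1 bore on that contrast. It held less of Wnt4, which drives the change from mesenchyme to epithelium, at 85.7 and 198 CPM for the 2 replicates, as well as of Jag1 at 30.2 and 71.8. Without it, 1 of the 15 genes was called higher in KO, Lhx1 having a change of 3.30 and an adjusted p of 0.046, and 36 genes were called in all. Without Het-labelled replicate 2 the list count was 9, without KO-labelled replicate 2 it was 4, and with length and GC trends removed it was 7.

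Receptors for the GDNF family changed in opposite directions. These co-receptors pair with Ret, and GDNF from progenitors is the signal that makes the bud branch. Gfra1, the GDNF co-receptor, fell from 526 and 589 to 282 and 215 CPM (-1.16, SE 0.14, adjusted p = 4.2e-04), while Gfra2 rose as given above. Nrtn, the ligand of Gfra2, rose from 8.2 and 9.26 to 22.1 and 18.7 CPM (1.23, SE 0.24, adjusted p = 0.0044), and Ncam1, an adhesion molecule that also binds GDNF, from 282 and 254 to 569 and 668 (1.20, adjusted p = 1.5e-04). Gdnf had 148 and 192 against 157 and 172 CPM and was not called (adjusted p = 0.89). Of 8 tested genes, 4 rose and 2 fell, beside 13.1% and 12.2% of all tested genes. The remaining calls, Gfra4 (a change of 1.11) and Gfra3 (-2.10), were of genes under 20 CPM, and without Het-labelled replicate 1 neither was called (adjusted p = 0.11 and 0.099). In KO against Het, Gfra1 was lower still (135 and 134 CPM, -0.89, adjusted p = 0.0081, or 0.1 without Het-labelled replicate 1), so its Het-labelled level lay between the other 2 groups.

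The FGF receptor Fgfr1 rose with the ligands Fgf8 and Fgf9. Fgfr1, which carries FGF signals in the cap, had 2151 and 2010.0 CPM in the Het-labelled and 1216 and 1413 in the WT-labelled libraries (0.66, SE 0.13, adjusted p = 0.0046). Without Het-labelled replicate 1 its adjusted p was 0.058. In total 4 of 12 tested FGF genes rose and 1 fell (41.7% called). In the list of feedback genes 30.8% were called, all higher. Of all tested genes 25.3% were called, 13.1% higher and 12.2% lower. Among genes that receptor tyrosine kinases induce as feedback, 4 of 13 rose and 0 fell, and 0, 2, 1 and 3 rises were called without each library in the order above. Spry4, an inhibitor of the Ras pathway, had 87.6 and 80.8 CPM against 43.7 and 55.8 (0.76, SE 0.16, adjusted p = 0.0074), and it was lost without Het-labelled replicate 1 (adjusted p = 0.066).

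Notch genes showed a single large fall. Heyl, a repressor downstream of Notch, had 17.6 and 11.2 CPM in the Het-labelled and 81.3 and 84.8 in the WT-labelled libraries (-2.51, SE 0.19, adjusted p = 3.3e-05), with 18.4 and 18.7 in the KO-labelled and 109.6 and 93.8 in the SmoM2-labelled ones. The Het-labelled level was thus near that of the KO-labelled and far below the other 2 groups. The related repressor Hes1 rose from 77.6 and 108 to 181 and 168 CPM (adjusted p = 0.023), and was not called without Het-labelled replicate 1 (adjusted p = 0.11), Het-labelled replicate 2 (0.075) or WT-labelled replicate 1 (0.12). Rfng, which modifies Notch receptors, rose by 0.95 (adjusted p = 0.0048). In the Notch list 35.7% of tested genes were called, beside 25.3% of all tested genes. Of 14 tested genes 4 rose and 1 fell, and the rises numbered 4, 1, 1 and 4 without each library in turn.

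In the Wnt pathway the falls were of secreted proteins, and the rises included receptors. Frzb, a soluble Wnt antagonist, fell from 69.4 and 71.1 to 6.68 and 16 CPM (-2.67, SE 0.28, adjusted p = 1.5e-04). Rspo3, a secreted enhancer of Wnt signals, fell from 47.5 and 57.8 to 17.1 and 8.32 (-2.02, SE 0.25, adjusted p = 4.1e-04) and Dkk3 fell by 1.59 (adjusted p = 0.0012). These 3, with Wnt11, make up the 4 falls among 23 tested genes. In that list 39.1% were called in either direction, beside 25.3% of all tested genes. The receptors Fzd1 and Fzd7 rose, by 0.84 and 0.84 (adjusted p = 0.0054 and 0.0034), Fzd7 from 307 and 233 to 461 and 509 CPM. Nkd1, a feedback inhibitor induced by Wnt, rose from 49.2 and 70.7 to 123 and 141 CPM (1.14, SE 0.17, adjusted p = 0.0011). With these, 5 genes rose, and 3, 5, 4 and 6 rises and 4, 5, 4 and 5 falls were called without each library in the order above.

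Of 22 tested BMP and TGF-beta genes, 7 fell and 2 rose, beside 12.2% and 13.1% of all tested genes, while the list median was 0.09. The falls included the receptor Bmpr1a, at 109 and 102 against 158 and 177 CPM (-0.67, adjusted p = 0.0097), and the antagonist Nog, at 1.87 and 2.89 against 6.06 and 7.3 (-1.50, adjusted p = 0.012). Bmpr1a was lost without Het-labelled replicate 2 (adjusted p = 0.075) and with GC and length trends removed (0.079), and Nog without Het-labelled replicate 1 (0.1). The falls numbered 2, 2, 3 and 2 without each library in turn, and 3 with GC and length trends removed, so most of these calls needed all 4 libraries.

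Among retinoic acid genes, 4 of 13 rose and 3 fell (53.8% called, beside 25.3% of all tested genes). Crabp1, which binds retinoic acid in the cytoplasm, had 9.89 and 14.1 CPM against 2.24 and 5.77 (1.59, adjusted p = 0.013, or 0.094 without Het-labelled replicate 2 and 0.056 without WT-labelled replicate 1). The nuclear receptor Rxrb rose by 0.63 (adjusted p = 0.0023), which was lost with GC and length trends removed (0.097). Counts of calls fell to 3, 1, 2 and 4 rises and 0, 0, 1 and 1 falls without each library in turn.

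Among Fox factors other than Foxd1, Foxn3 fell from 27.5 and 41.3 to 13.1 and 14.6 CPM (-1.31, SE 0.21, adjusted p = 0.0017). Foxc1, a factor of kidney mesenchyme, fell from 610.1 and 659 to 492 and 397 (-0.51, SE 0.15, adjusted p = 0.026), a call lost without Het-labelled replicate 2 (adjusted p = 0.21) or WT-labelled replicate 2 (0.084). In KO against Het it was lower again, at 275 and 219 CPM (-0.85, adjusted p = 0.01, or 0.11 without Het-labelled replicate 1), so the Het-labelled level lay between those of KO and WT. Of 16 tested Fox genes, Foxd1 among them, 4 fell and 3 rose (43.8% called, beside 25.3% of all tested genes). The falls numbered 3, 2, 3 and 2 and the rises 0, 1, 0 and 2 without each library in turn.

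**Figure D4:**
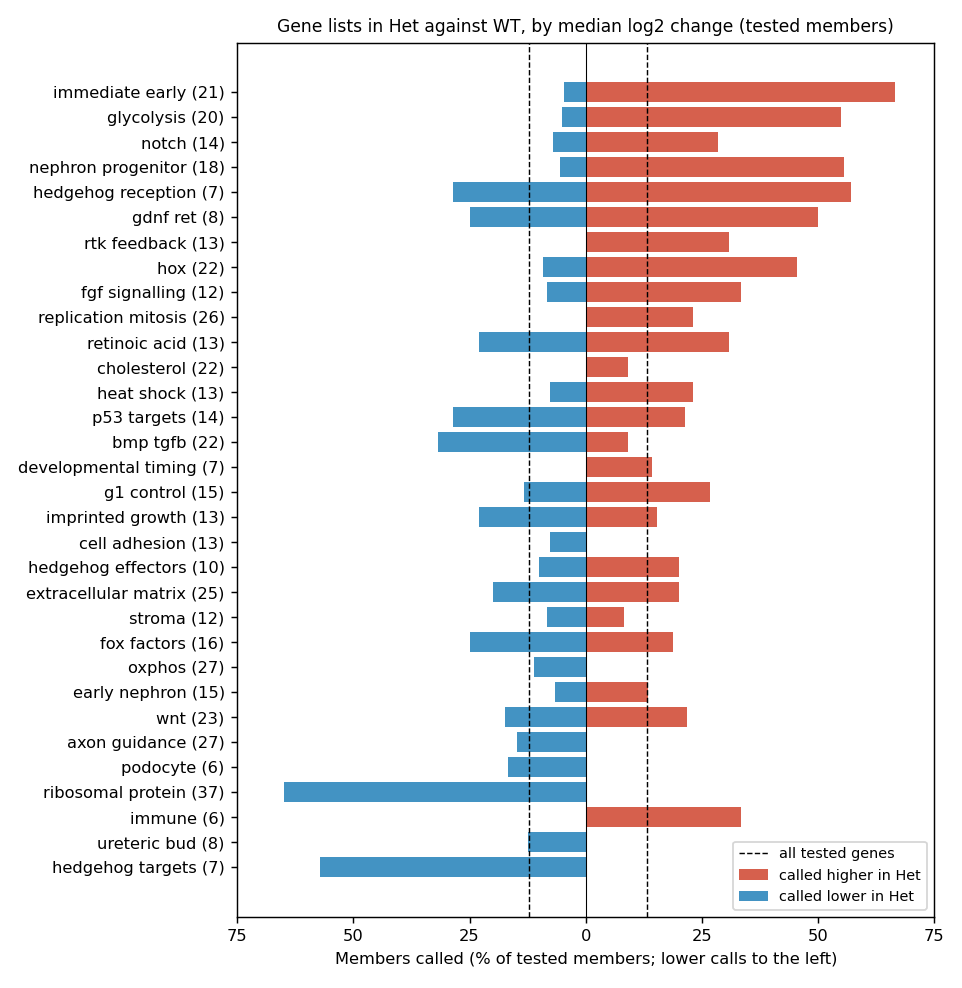
Share of the tested members of each gene list called higher (red, to the right) or lower (blue, to the left) in the Het-labelled against the WT-labelled libraries, for lists with at least 5 tested members (number in brackets), ordered by median log2 change. Dashed lines mark the shares over all tested genes, 13.1% higher and 12.2% lower. Immediate early, Hedgehog reception, progenitor and glycolysis genes reach furthest to the right, and ribosomal protein genes furthest to the left.

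Immediate early genes were high in both Het-labelled libraries. These genes are transcribed within minutes of a growth factor signal or of stress, including the handling of dissociated tissue, and need no new protein to be switched on. Of 21 such genes, 14 rose and 1 fell, beside 13.1% and 12.2% of all tested genes, with a median of 1.30. Their summed level was 10621 and 10429 CPM in the Het-labelled, 4028 and 4319.8 in the WT-labelled, 6057 and 8126 in the KO-labelled and 4464 and 6494 in the SmoM2-labelled libraries. The Het-labelled sums were thus the highest of the 8. Egr1, the most abundant, had 3508 and 3078 CPM against 1345 and 1337 (1.30, SE 0.22, adjusted p = 0.002). Egr3 had 84.3 and 55.4 against 6.25 and 5.77 (3.54, SE 0.34, adjusted p = 1.0e-04), Egr2 127 and 113 against 30.1 and 29.95 (2.00, adjusted p = 0.0011) and Egr4 17.1 and 10.4 against 1.12 and 1.42 (3.44, adjusted p = 7.8e-04). The 4 Egr factors were thus all called higher. Fosb rose from 155 and 136 to 668 and 903 CPM (2.43, SE 0.28, adjusted p = 3.0e-04) and Fos by 1.52 (adjusted p = 0.0017), both parts of the AP-1 factor. Junb, a partner of both, rose by 1.55. Ier2 rose by 1.55, the growth brake Btg2 by 2.26 and Zfp36, which speeds the decay of inflammatory mRNA, by 1.54 from 74.8 and 78 to 251 and 193 CPM. Klf6 was the exception that fell, from 19.9 and 20.4 to 9.36 and 9.34 CPM (-1.10, adjusted p = 0.008).

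Many immediate early promoters bind the serum response factor at a motif called the CArG box, which reads the same class of letters on both strands. It was looked for in the 250 bases before each gene start given by RefSeq (GRCm38.p6). Of 17 immediate early genes matched there, 2 held it (11.8%), against 439 of 27025 genes in all (1.62%) and 145 of 10330 matched tested genes (1.40%). The sites are shown since they belong to 2 of the genes that rose together, with the CArG box in capitals. For Egr2, a site was found before 2 of the annotated starts:
Egr2, chr10:67537484-67537513, plus strand: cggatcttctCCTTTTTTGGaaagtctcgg
Egr2, chr10:67537787-67537816, plus strand: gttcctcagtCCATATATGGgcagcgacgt
Zfp36, chr7:28379267-28379296, minus strand: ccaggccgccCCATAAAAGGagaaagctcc
A match of letters is a description and no measure of binding, and the absence of one in the other 15 genes says nothing about the factor.

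Whether the immediate early level moves with the handling of the tissue was not tested, but it moved with the groups. With the mean log2 level of that list as a covariate, 321 genes were called in place of 3403, and the covariate lay between 6.84 and 6.92 in the Het-labelled and between 5.67 and 5.81 in the WT-labelled libraries, so that it nearly coincides with the contrast. Smo (-4.16, adjusted p = 0.0094), Gli1 (-2.54, 0.047), Gfra2 (4.43, 0.03), Fgf8, Cited1, Meis1 and Heyl were still called in that fit, whereas Foxd1 was not (adjusted p = 0.096). In the heat shock list 3 of 13 genes were called higher and 1 lower, with a median of 0.11. The share called was 30.8%, near the 25.3% of all tested genes. The chaperones Hsph1, from 25.8 and 28.8 to 117 and 119 CPM (2.11, adjusted p = 1.5e-04), and Hspa5, the chaperone of the endoplasmic reticulum (1.14, adjusted p = 0.0074), rose most.

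Most ribosomal protein genes were lower in the Het-labelled libraries than in the other 3 groups. Of 37 such genes, 24 fell and 0 rose, beside 12.2% and 13.1% of all tested genes, with a median of -0.47. Summed over the list, the level was 25488 and 26045 CPM in the Het-labelled and 32641 and 36479.8 in the WT-labelled libraries, with 37886 and 33503 in the KO-labelled and 36459 and 40078 in the SmoM2-labelled ones. Both Het-labelled sums were below all 6 others. Rps27 fell from 638 and 675 to 348 and 356 CPM (-0.90, SE 0.12, adjusted p = 8.0e-04), Rps23 fell by 0.81 (adjusted p = 0.0015), Rpl19 fell by 0.75 and Rpl5 fell by 0.72. Between KO and Het, 19 of the 37 were called higher in KO and 0 lower, beside 4.33% and 5.1% of all tested genes. Sex and group coincide in that contrast, and few of its calls over all tested genes remained without Het-labelled replicate 1, as given above. Between Het and SmoM2, where 16.7% of tested genes were called lower in Het, 30 were called lower in Het. These contrasts share the Het-labelled libraries. Called falls against WT numbered 9, 11, 21 and 13 without each library in the order above, and 26 with GC and length trends removed.

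Outside that list, Rps3a1, Rps18 and Rpl26 were the ribosomal genes among abundant falls of at least 2-fold. Rps3a1 went from 973 and 948 to 424 and 387 CPM (-1.24, SE 0.12, adjusted p = 1.1e-04) and Rpl26 from 536 and 666 to 232 and 263 (-1.28, adjusted p = 0.0082). Rps18 had 307 and 343 against 493 and 844 CPM (adjusted p = 0.017). Many ribosomal protein genes have processed pseudogenes of near-identical sequence, so reads can be split between copies and the values of Rps3a1, Rps18 and Rpl26 are uncertain. Rps2, with 10.3 and 341 CPM in the 2 WT-labelled libraries, differed widely between replicates and was not called. Rps18 was not called without Het-labelled replicate 1 (adjusted p = 0.091), Het-labelled replicate 2 (0.065) or WT-labelled replicate 2 (0.11), nor Rpl26 without Het-labelled replicate 1 (0.055).

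**Figure D5:**
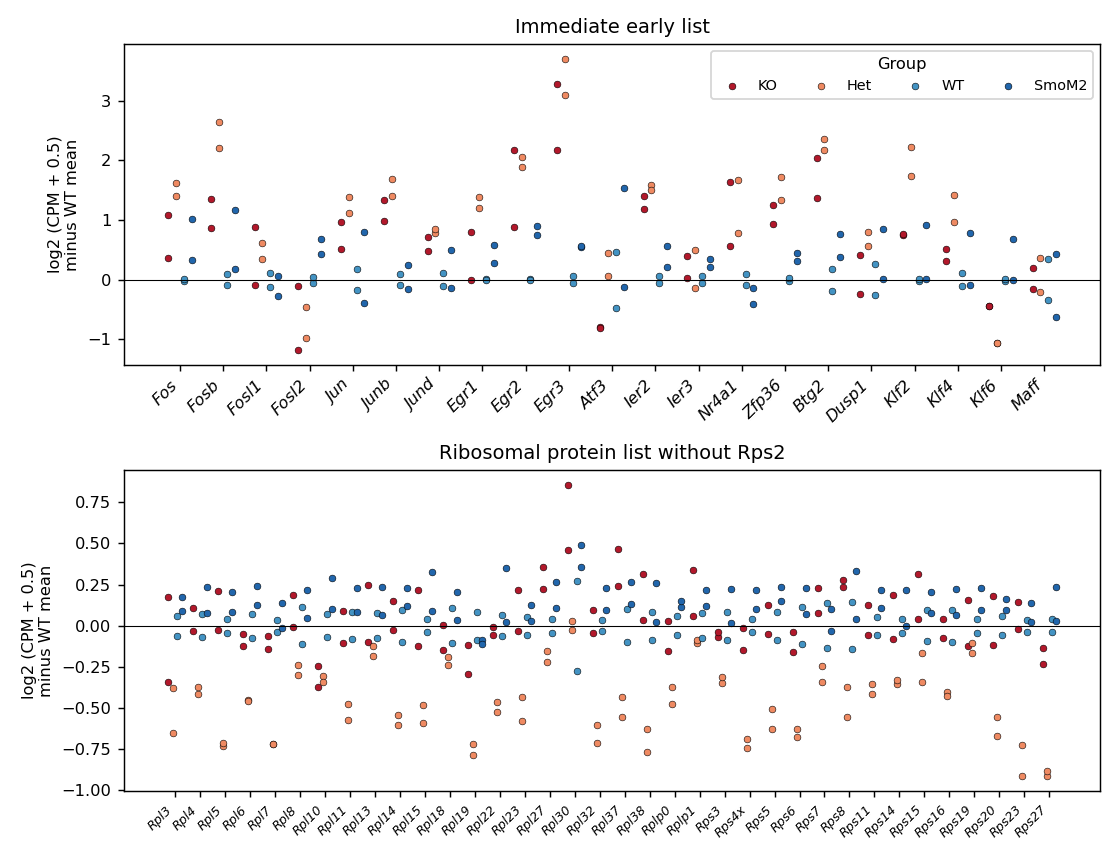
Immediate early genes (top) and ribosomal protein genes without Rps2 (bottom) in each library, as log2 (CPM + 0.5) minus the mean of the WT-labelled libraries, with points for libraries. Most immediate early genes are highest in the Het-labelled libraries with the KO-labelled ones next, and most ribosomal protein genes are lowest in the Het-labelled libraries while the other 3 groups lie near each other.

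Enzymes of glycolysis, which turns glucose into pyruvate and lactate, were higher. Of 20 genes, 11 rose and 1 fell, beside 13.1% and 12.2% of all tested genes, with a median of 0.75. Slc2a1, the glucose transporter, rose from 48.6 and 68.1 to 136 and 176 CPM (1.42, SE 0.18, adjusted p = 4.7e-04). Hk2, which traps glucose in the cell, rose from 33.2 and 43.3 to 87.3 and 129 (1.50, SE 0.24, adjusted p = 0.0015), while its relative Hk1 fell from 110.5 and 129 to 64.3 and 67.8 (-0.86, SE 0.13, adjusted p = 0.0014). The 2 hexokinases therefore changed in opposite directions. Slc16a3, which exports lactate, rose by 1.75 (adjusted p = 9.1e-04), Pfkl, which commits sugar to the pathway, by 1.27 (adjusted p = 0.0027) and Ldhb by 1.11 (adjusted p = 0.0033). Het-labelled replicate 2 was higher than replicate 1 in Slc16a3, at 87.6 and 155 CPM, and in Ldhb, at 164 and 263. Ldha, Aldoa, Tpi1 and Pgam1, further enzymes of the route, rose by 0.90, 0.77, 0.73 and 0.82, but without Het-labelled replicate 2 none of them was called (adjusted p = 0.15, 0.19, 0.13 and 0.058). The rises numbered 6, 5, 6 and 11 without each library in the order above. Aldoa was also not called by the DESeq2 test (adjusted p = 0.088), with the Het-labelled and WT-labelled libraries alone (0.062) or with length and GC trends removed (0.14). Its change ranged from 0.37 without WT-labelled replicate 1 to 1.31 without WT-labelled replicate 2, so it depended on other libraries too. WT-labelled replicate 1 was the lowest of the 8 libraries in the summed level, with 3158 and 4904 CPM in the WT-labelled, 5518 and 6666 in the Het-labelled, 4813 and 5229 in the KO-labelled and 5243 and 6184 in the SmoM2-labelled libraries. Against SmoM2, 5 of the 20 genes were called higher and 3 lower in Het, where 16.9% and 16.7% of tested genes were.

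Respiratory chain genes did not follow. Of 27 genes, 0 rose and 3 fell, with a median of -0.17 and a smaller share called than among all genes. The falls numbered 2, 0, 4 and 0 without each library in turn. In KO against Het 10 were called higher in KO, and 0 without Het-labelled replicate 1. For cholesterol synthesis, whose products bind and regulate Smo, 2 of 22 genes rose and 0 fell (9.09% called, beside 25.3% of all tested genes). Dhcr7, the last enzyme of that route, had 40.9 and 42 CPM in the Het-labelled and 25.1 and 21.5 in the WT-labelled libraries (0.83, adjusted p = 0.0068).

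In the replication and mitosis list 23.1% of genes were called, a share near the 25.3% of all tested genes. Of its 26 genes, 6 rose and 0 fell, with a median of 0.26, and the rises numbered 0, 3, 2 and 5 without each library in turn. Plk1, a mitotic kinase, had 78.9 and 78 against 49.96 and 43.7 CPM (0.74, adjusted p = 0.007, or 0.053 without Het-labelled replicate 1 and 0.054 without WT-labelled replicate 2). Among G1 regulators, 4 of 15 rose and 2 fell (40% called, beside 25.3% of all tested genes). Ccnd3, cyclin D3, rose from 131 and 138 to 229 and 204 CPM (0.69, SE 0.12, adjusted p = 0.0022). The inhibitor Cdkn1c, which marks cells leaving the cycle, rose from 131 and 197 to 450.5 and 278 (1.15, adjusted p = 0.0043, or 0.051 without Het-labelled replicate 1). Cdkn1a, the inhibitor p21 that p53 induces, fell from 41.7 and 22 to 7.35 and 12.4 CPM (-1.71, adjusted p = 0.011, or 0.086 without Het-labelled replicate 1 and 0.065 without WT-labelled replicate 1). Of 14 p53 targets, 3 rose and 4 fell (50% called, beside 25.3% of all tested genes). Sesn1, which curbs growth under stress, fell by 1.03 (adjusted p = 0.0018).

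Imprinted growth genes gave 2 rises and 3 falls among 13 (38.5% called, beside 25.3% of all tested genes). H19, a noncoding RNA that restrains growth, fell from 2659 and 4036 to 1673 and 2151 CPM (-0.81, SE 0.20, adjusted p = 0.013). It was not called without Het-labelled replicate 1 (adjusted p = 0.1) or WT-labelled replicate 2 (0.071). Igf2, the growth factor of the same locus, had 1012 and 1382 against 1255 and 2364 CPM (-0.60, adjusted p = 0.1), with Het-labelled and WT-labelled values that overlapped, and it was called lower without WT-labelled replicate 1 (0.0057) and with sex as a covariate (0.0081). Of the genes that time kidney development, 1 of 7 rose (14.3%), near the 13.1% of all tested genes called higher. Lin28a and Lin28b, which lengthen nephron formation when forced on, had at most 1 count in a library.

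The extracellular matrix list had 5 rises and 5 falls among 25 (40% called, beside 25.3% of all tested genes). Lama5, a laminin of basement membranes, rose from 197 and 201 to 357 and 325 CPM (0.78, SE 0.12, adjusted p = 0.0012). Frem1, an anchor between epithelium and mesenchyme, fell from 204 and 182 to 95.8 and 125 CPM (-0.81, SE 0.14, adjusted p = 0.0029). For both genes the call held without any one of the 4 libraries. Among 27 axon guidance genes, 4 fell and 0 rose, and 2, 2, 5 and 2 falls were called without each library in turn. In that list 14.8% were called, all lower, near the 12.2% of all tested genes called lower and under the 25.3% called. Sema3d, a secreted repellent, had 12.2 and 3.74 CPM against 24.9 and 36.1 (-1.89, SE 0.36, adjusted p = 0.0038). Ephb2, a receptor for ephrins, had 74.5 and 65.9 against 111 and 161 (-0.95, adjusted p = 0.0095, or 0.072 without Het-labelled replicate 2 and 0.058 without WT-labelled replicate 2). Of 13 adhesion genes the desmosome protein Dsp was the single one called, at 0.267 and 0.679 against 2.52 and 3.16 CPM, and it was lost without Het-labelled replicate 1 (adjusted p = 0.1).

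Some genes had Het-labelled levels beyond both the KO-labelled and the WT-labelled ones, called in both comparisons. In the comparison with KO, sex coincides with group. Of these, Pde3a, a phosphodiesterase that breaks down cAMP, had 37.3 and 55.7 CPM in the Het-labelled, 6.15 and 7.52 in the WT-labelled and 9.3 and 8.49 in the KO-labelled libraries. It rose by 2.76 against WT (SE 0.25, adjusted p = 9.3e-05) and was lower in KO than in Het (-2.38, SE 0.26, adjusted p = 0.004). Casz1, a zinc finger factor, had 34.1 and 19.9, 4.85 and 4.57 and 5.31 and 9.14 CPM in the same order of groups (adjusted p = 4.1e-04 and 0.0085). Sypl2, a synaptophysin-like membrane protein, had 125 and 89.9, 22 and 21.5 and 39.6 and 31.8 (adjusted p = 4.7e-05 and 0.0043). The SmoM2-labelled libraries had 18.8 and 25.8 CPM of Pde3a, above its WT-labelled values, 6.03 and 6.36 of Casz1 and 15.8 and 13.2 of Sypl2. In these 3 genes both Het-labelled values lay above the 4 WT-labelled and KO-labelled ones, which the rule that picked them nearly requires. Insrr, a receptor that senses alkaline pH, and Adam8, a membrane protease, showed the same pattern at lower levels, with Het-labelled values of 20.5 and 17.8 and 12 and 14.8 CPM. In the other direction stood Hist1h2al, Ms4a2, Zfp33b, Fst and St6gal2, which had at most 3 counts in either Het-labelled library. Zfp33b, a zinc finger gene, had 68 and 81 counts in the WT-labelled libraries and was at least 14.9-fold lower in the Het-labelled ones, but the KO-labelled libraries had 47 and 2, which lie far apart. Hist1h2al belongs to a cluster of near-identical histone genes, and its value is uncertain. Against WT, Zfp33b (0.073), St6gal2 (0.069) and Ms4a2 (0.093) were lost without Het-labelled replicate 1, and Fst without Het-labelled replicate 2 (0.065). Fst, the activin antagonist follistatin, had 24 and 11 counts in the WT-labelled and 6 and 6 in the KO-labelled libraries. Of the 10 genes with such a pattern named here, Pde3a and Sypl2 were the 2 called in KO against Het whichever KO-labelled or Het-labelled library was left out, with adjusted p = 0.0092 and 0.046 without Het-labelled replicate 1, where Casz1 had 0.095.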

How the data were processed

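RNA of 8 libraries was sequenced by the submitters, and 4 of them, Het-labelled and WT-labelled, were compared here. The deposited table holds raw read counts per gene made by the authors, and STAR, Subread featureCounts and the genome build mm10 are named in the submitters' processing notes. RPKM values in the same table were computed by the authors per the file headers, and they served here for Smo and for an alternative scaling. The authors' gene length column entered the check of length trends.

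Groups and replicate numbers came from the labels. Genes were filtered with filterByExpr, which left 13459 of 24539 symbols. Libraries were scaled by TMM, and edgeR 4.0.16 (R 4.3.3) fitted a quasi-likelihood model to all 8 libraries, with 4 residual degrees of freedom and a biological coefficient of variation of 13.5%. P-values are two-sided, were adjusted by the Benjamini-Hochberg method over all tested genes, and count as called under 0.05. Each standard error is the log2 change divided by the square root of its F statistic. An exact permutation test of 2 against 2 libraries cannot go below p = 0.333, so none was used. The procedure was tested on simulated data. Genes with at most 3 counts in each library of a group were taken as at the floor, which covers counting error only, and a fold against it is a lower bound taken from the highest floor among a group's libraries (0.51 CPM for Het-labelled, 0.327 CPM for WT-labelled). Positions and promoter sequences came from RefSeq (GRCm38.p6). GC content was that of the longest GENCODE M21 transcript of each symbol and was known for 97.9% of tested genes.

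The members of the gene lists and the comparison itself were chosen with earlier results of these data known. Named were Smo, list members, the 10 largest changes in each direction without overlap between groups and with a mean log2 CPM of 1 or more, the 6 most abundant genes in each direction with an absolute log2 change of at least 1, and 5 genes in each direction in which Het lies beyond both KO and WT. Predicted genes, Rik clones and Y-linked genes were passed over, and a few genes that the rule names are not reported here. Alternatives were DESeq2 1.42.0 and its size factors, RPKM-implied totals, other filters, the 4 libraries alone, each library left out, a replicate block, sex, thinning, the immediate early level as a covariate and removal of trends over length and GC content. Those for Het against SmoM2 and for list counts in KO against Het were chosen after seeing the data.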

Additional observations from a re-analysis of the deposited data

How the results depend on the processing

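The number of genes called in Het-labelled against WT-labelled libraries was within 1.5 times 3403 under 11 of the 15 alternatives, with 2989 by the DESeq2 test, 4093 with every gene that has a count and 2803 with length and GC trends removed. Without a library it ranged from 1401 to 2533, with 761 to 1290 genes higher and 636 to 1243 lower. With the immediate early level as a covariate 321 were called, 207 higher and 114 lower. That covariate separates the Het-labelled from the WT-labelled libraries by itself, so little of the contrast is left to estimate. In KO against Het the count was 1269, which became 304 with length and GC trends removed and 36 to 551 without a library. In Het against SmoM2 it was 4529, and 2409 to 2632 without a library. Fits without a library have fewer residual degrees of freedom and take the lone sample to vary like the other groups.

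Of the 130 named genes called in Het against WT, 102 were still called without Het-labelled replicate 1, 108 without Het-labelled replicate 2, 118 without WT-labelled replicate 1, 117 without WT-labelled replicate 2, 125 by the DESeq2 test and 120 with length and GC trends removed. With the immediate early level as a covariate 20 were called and 5 turned in direction without being called, namely Cd68 (-0.076), Fbxo2 (-2.26), Fbxo44 (-2.95), Hes1 (-0.14) and Hspa5 (-0.10). Genes not called also turned. Gdnf was at -0.062 in that fit, at -0.12 with sex as a covariate, at -0.0092 after thinning and between -0.17 and 0.19 without a library, Gli3 at 0.026 after thinning and 0.12 with length and GC trends removed, and Lhx1 between -0.73 and 0.53 without a library. The cause of these turns was not tested. A filter of 10 counts in each library left 106 of the 130 genes with a value.

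Replicate numbers are shared by the groups, but same-numbered Het-labelled and WT-labelled libraries did not deviate together (r = -0.019), so the numbers do not pair them. Same-numbered WT-labelled and SmoM2-labelled libraries, which share the fit, did deviate together (r = 0.39). In both of those groups replicate 1 had Y-linked counts and replicate 2 had 0. With a replicate block 3685 genes were called in Het against WT, all 130 named calls held, Ccnd1 (-0.98, adjusted p = 0.011), Wnt4 (-0.82, 0.014), Osr1 (1.29, 0.0053) and Pax2 (0.46, 0.027) were called in addition, and the counts were 1527 in KO against Het and 4765 in Het against SmoM2. Depth limits genes near the floor, where a change is given as a bound.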

Other observations

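Called genes on the X chromosome were more often lower than higher in the Het-labelled against the WT-labelled libraries, unlike those on autosomes. Of 451 tested X-linked genes 98 were called (21.7%), 31 higher and 67 lower, with a median change of -0.16. Of 12607 autosomal genes 25.5% were called, 1685 higher and 1524 lower, with a median of -0.011. The difference between the X chromosome and the autosomes was not tested. WT-labelled replicate 1 was the single library of the 4 with Y-linked counts. With sex as a covariate 3561 genes were called in all.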
